A study of Mus musculus with 12 samples.

Results

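The genes described here encode the proteins of the cytosolic ribosome. They were chosen from the deposited count table by symbol alone, as the numbered Rpl and Rps genes together with Rplp0, Rplp1, Rplp2 and Rpsa. Pseudogenes and the S6 kinases were left out. The rule found 83 genes of the 32285 in the table, 51 with symbols beginning Rpl and 32 with symbols beginning Rps, on 19 chromosomes. Some genes for ribosome components, such as Fau and Rack1, fall outside the rule and are counted as a list of their own.

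RNA was sequenced from the caudal nucleus pulposus, the soft centre of the intervertebral discs of the tail, in 6 WT and 6 Opa1cKO mice at the age of 12 months, 1 mouse per library. The strain was C57BL/6-129/SvEv. In Opa1cKO, the mitochondrial fusion gene Opa1 was removed at 3 months with AcanCre, a Cre recombinase that acts in the aggrecan-expressing cells of disc and cartilage once tamoxifen is given. Mice of both genotypes received tamoxifen at 100 mg/kg on 3 days and lived a further 9 months, and the study set out to compare the RNA of the tissue between them.

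Opa1 itself ran from 69.3 to 118 CPM (counts scaled by library total and TMM factor) in WT and from 30.2 to 47.7 CPM in Opa1cKO, with no overlap. Libraries held 37268242 to 56618266 counts. Sex-linked counts went against the labelled sex in 4 libraries, WT 4, WT 5, WT 6 and Opa1cKO 4. Without these 4, the WT libraries left, WT 1, WT 2 and WT 3, are all female. With sex in the model, genotype is then compared among females alone, these against Opa1cKO 5 and Opa1cKO 6. Of the libraries labelled male, WT 5, WT 6 and Opa1cKO 4 read as female, and Opa1cKO 1, Opa1cKO 2 and Opa1cKO 3 as male. Values in labelled males alone therefore mix genotype with sex. In 4 libraries, WT 2, WT 4, Opa1cKO 3 and Opa1cKO 6, genes of high GC content read low compared with genes of low GC content, and the values of Rpl22l1 and of the members that varied with these libraries are given with and without them. The nucleus pulposus markers fixed for the tissue summed to 45247 to 59026 CPM in WT and 41695 to 55702 CPM in Opa1cKO, and none of 10 passed the test. Car3 was the largest part of the sum, with means of 28954 CPM in WT and 30376 CPM in Opa1cKO. The markers were not all level: log2 fold changes, Opa1cKO over WT, ran from -1.08 (Foxa2) to 0.24 (Krt8). Their median was 0.01, and Acan had -0.53. Of the 6 macrophage markers, 5 were tested, 1 rose and 2 fell, and their sum was 105 to 197 CPM in WT and 97.1 to 117 CPM in Opa1cKO. The summed markers of erythroid cells stayed at or below 6.44 CPM, of B and T cells at or below 1.37 CPM, of endothelium at or below 2.94 CPM, of bone at or below 3.45 CPM, of epidermis at or below 3.11 CPM and of skeletal muscle at or below 16.44 CPM. Cartilage endplate markers summed to 409 to 849 CPM in WT and 362 to 3166 CPM in Opa1cKO. The highest was Opa1cKO 6, with Col2a1 at 3130 CPM, against 355 to 1332 CPM in the other Opa1cKO libraries. In WT and Opa1cKO, annulus markers summed to 1295 to 1908 and 1541 to 2462 CPM. Cycling-cell markers summed to 15.6 to 37.9 and 20.5 to 54.3 CPM. No member of the endplate, annulus or cycling-cell lists passed. The part of such cells in the results below was not tested. In bulk tissue, fewer cells of a type and less RNA per cell cannot be told apart.

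The ribosome is built from a small subunit, which reads the messenger RNA, and a large subunit, which joins amino acids. Each subunit is ribosomal RNA dressed with proteins that are made in near-equal amounts, so the genes for these proteins are among the most coordinately expressed in any cell. Most of their messenger RNAs begin with a C followed by a run of pyrimidines, the 5′ terminal oligopyrimidine tract, through which mTORC1 and LARP1 set how strongly they are translated. Several genes have a relative, or paralogue, whose protein can take the same place in the ribosome, and Rpl22l1 and Rpl22 are the best-studied pair. The present data give RNA levels only, and translation was not measured.

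The start regions below show that tract in genes the results turn on. Each is the 60 bases from 40 before to 20 after the RefSeq start on the gene's own strand (assembly GRCm38.p6), with the pyrimidine tract in capitals. In Rpl22l1 the letters TATAAA, which begin 28 bases before the start, are in capitals too.
Rpl22l1 (chr3:28805468-28805527, plus strand): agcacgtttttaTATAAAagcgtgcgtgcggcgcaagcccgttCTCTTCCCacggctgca
Rpl22 (chr4:152325686-152325745, plus strand): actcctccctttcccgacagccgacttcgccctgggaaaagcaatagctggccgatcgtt
Rpl12 (chr2:32961672-32961731, plus strand): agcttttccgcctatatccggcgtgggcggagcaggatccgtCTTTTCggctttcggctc
Rplp2 (chr7:141447611-141447670, plus strand): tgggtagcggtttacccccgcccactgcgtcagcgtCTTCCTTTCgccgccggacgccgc
Rps26 (chr10:128626487-128626546, minus strand): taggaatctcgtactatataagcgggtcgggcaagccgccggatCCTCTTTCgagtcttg
Rps6 (chr4:86857348-86857407, minus strand): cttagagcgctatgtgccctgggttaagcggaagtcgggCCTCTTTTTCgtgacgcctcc
At these starts Rpl22l1, the member that changed, has a tract of 8 bases, while no tract met the definition in Rpl22, its paralogue. A tract was looked for at RefSeq starts only. The start of the annotated Rpl22 gene, 152325742, lies downstream of the RefSeq start shown, so the pair may not differ at other starts. Rpl12, Rplp2, Rps26 and Rps6 carry tracts of 6 to 10 bases.

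A promoter window of 250 bases before to 50 after the start was given for 63 of the 83 genes. A tract, defined as a C followed by at least 4 of C or T and beginning within 5 bases of the start, was present in 29 of the 63, or 46%, against 23.7% of the 11302 tested genes with a window and 21.2% of all 27025 windows. The letters CCGGAAG, which are part of the sequence bound by ETS factors, were found on either strand in 41.3% of member windows and 19.1% of tested-gene windows. AAGATGG, part of the YY1 sequence, was found in 15.9% and 8.21%, and TATAAA in 11.1% and 9.1%. Over all windows those shares were 9.93%, 7.28% and 15.7%. These matches describe letters and show no binding.

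In Opa1cKO the RNA of most of these genes lay close to its WT level, and Rpl22l1 was the member that changed. Of the 83 genes, 80 had enough counts to be tested, and 1 was higher in Opa1cKO, where 5.1% of all 15229 tested genes were higher (edgeR quasi-likelihood test, Benjamini-Hochberg adjusted p below 0.05). None was lower, where 5.13% of all tested genes were lower. The unadjusted edgeR p was under 0.05 for 2 of the 80, Rpl22l1 and Rpl12, both above 0, and so for none of those below 0. It was under 0.05 for 3845 of all 15229 tested genes. DESeq2 also called none lower. The genotypes had separate ranges in 1 of the 80, against 6.41% of all tested genes. The median log2 fold change, Opa1cKO over WT, was -0.03 with quartiles of -0.12 and 0.06, beside a median of 0.01 and quartiles of -0.16 and 0.21 over all tested genes. The members' median changed sign with the libraries used: it was 0.03 without WT 1, 0.07 without Opa1cKO 6 and 0.07 in labelled males alone, and -0.19 without the 4 libraries that go against their labelled sex. With all 12 libraries and sex as sex-linked counts show it, the median was -0.02. Of the 80, 31 lay above 0 and 49 below. For 70 of them the 95% interval lay within a 1.5-fold change in either direction, and for 75 within 2-fold, so for most members a change larger than these was outside the interval. Among 5044 other tested genes in the members' range of mean level, 36.2 to 955 CPM, 233 were higher and 344 lower. Their median log2 fold change was -0.01 with quartiles of -0.14 and 0.12, and 1393 had an unadjusted edgeR p under 0.05. For 4165 of the 5044 the 95% interval lay within a 1.5-fold change. The median SE was 0.0986 in these genes and 0.134 in the members.

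**Figure D1:**
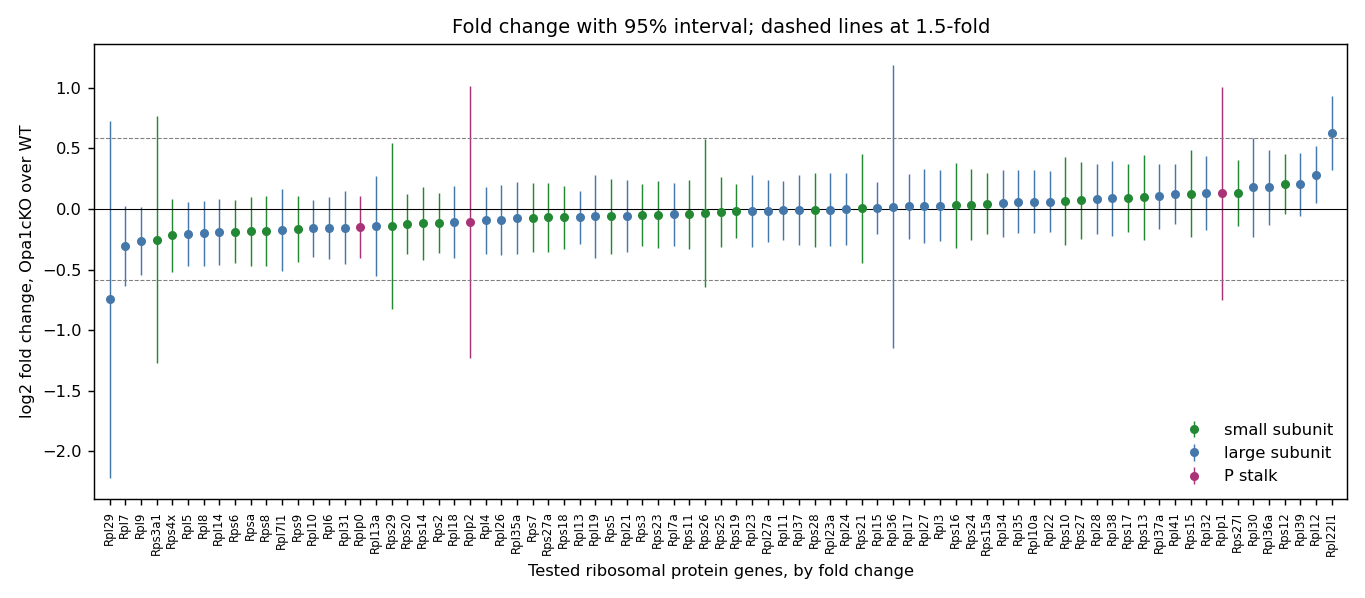
Log2 fold change (Opa1cKO over WT, vertical axis) of 79 of the 80 tested ribosomal protein genes, ordered by value, with points coloured by subunit and bars giving the 95% interval of the edgeR fit. Most points lie near 0 between the dashed lines at 1.5-fold, Rpl22l1 lies at 0.63 with its interval above 0, and Rpl29, Rps3a1, Rps29, Rps26, Rplp2, Rpl36 and Rplp1 have wide intervals.

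Rpl22l1, the paralogue of Rpl22, rose in Opa1cKO. Rpl22l1 (ENSMUSG00000039221, chromosome 3, 28805436 to 28807424, plus strand of GRCm38) had 55.9, 57.5, 40.9, 47.5, 61.1 and 54.9 CPM in WT 1 to 6 and 78.1, 72.0, 66.7, 112, 97.0 and 73.0 CPM in Opa1cKO 1 to 6. Every Opa1cKO library was above every WT library, and Opa1cKO 4 and Opa1cKO 5 were the highest. Its log2 fold change was 0.63 (SE 0.142, edgeR adjusted p = 0.0134, n = 6 per genotype). Without WT 2, WT 4, Opa1cKO 3 and Opa1cKO 6 it was 0.74 (SE 0.168, edgeR adjusted p = 0.0282). Without the 4 libraries that go against their labelled sex it was 0.73, with an edgeR adjusted p of 0.0691, in a fit that compares genotypes among females alone. With all 12 libraries and sex as sex-linked counts show it, it was 0.74 (SE 0.121, edgeR adjusted p = 0.00183).

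Rpl22 (ENSMUSG00000028936, chromosome 4, 152325742 to 152334071, plus strand) encodes a large-subunit protein that also binds RNA outside the ribosome and is known to restrain Rpl22l1. Its level was 231, 204, 179, 170.1, 180.4 and 173 CPM in WT 1 to 6 and 187.5, 176, 224, 226, 213 and 157 CPM in Opa1cKO 1 to 6. The genotypes overlapped throughout, and the log2 fold change was 0.06 (SE 0.118, edgeR adjusted p = 0.795). Per length, Rpl22l1 had 121 ± 16.6 TPM (a length-scaled transcript share, SD, n = 6) in WT and 193 ± 38.5 TPM in Opa1cKO, below Rpl22 at 296 ± 26.4 and 312 ± 35.2 TPM.

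The ratio of Rpl22l1 to Rpl22 in CPM, examined after the values were seen, was 0.281 ± 0.0426 in WT and 0.423 ± 0.0693 in Opa1cKO (SD, n = 6 each), given as a description with no test. It ran from 0.228 to 0.339 in WT and from 0.298 to 0.497 in Opa1cKO. Of the Opa1cKO libraries, Opa1cKO 3, at 0.298, lay within the WT range. Without WT 2, WT 4, Opa1cKO 3 and Opa1cKO 6 the ratio ran from 0.228 to 0.339 in WT and from 0.408 to 0.497 in Opa1cKO.

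Of the 50-base words in Rpl22l1 transcripts, 65.6% are shared with 4 other annotated genes, and 3 of these are pseudogenes not analysed here. The remaining gene, Gm33051, is annotated antisense to Rpl22l1, and its deposited count was 0 to 6 per library. The sources used here do not give the strand setting of the counting, so reads of the pair cannot be told apart.

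**Figure D2:**
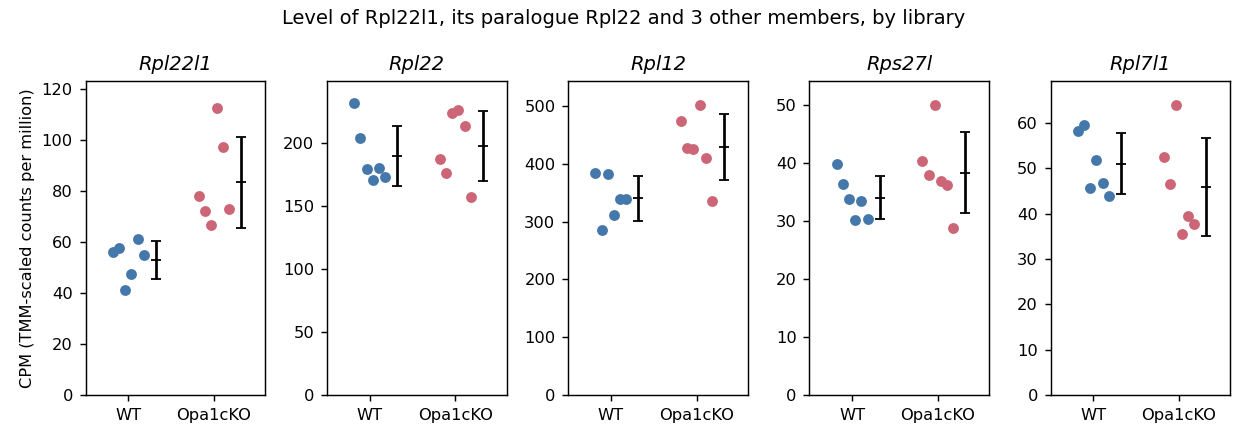
Level in CPM (vertical axis, from 0) of Rpl22l1, Rpl22, Rpl12, Rps27l and Rpl7l1 in each WT (blue) and Opa1cKO (red) library, with black bars giving the mean ± SD of 6 libraries. All Opa1cKO points of Rpl22l1 lie above all WT points, and in the other 4 genes the genotypes overlap.

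The other paralogues did not pass the test. Rps27l, a relative of Rps27 and a known p53 target, had a lowest, median and highest level of 30.2, 33.5 and 39.9 CPM in WT and 28.7, 37.4 and 50.0 CPM in Opa1cKO (log2 fold change 0.13, edgeR adjusted p = 0.559). Rpl7l1, a relative of Rpl7 known for a role in ribosome assembly, had 43.8, 49.3 and 59.6 CPM in WT and 35.5, 43.0 and 63.9 CPM in Opa1cKO (-0.17, edgeR adjusted p = 0.529). Both pairs of ranges overlapped widely.

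The parent genes Rps27, Rpl3, Rpl39 and Rpl10 had log2 fold changes of 0.07, 0.03, 0.20 and -0.16, and none passed. The 3 untested members are all paralogues with expression best known in other tissues. Rpl3l, the striated-muscle form of Rpl3, had 0 to 5 counts per library. Rpl10l, the testis form of Rpl10, had 2 counts in WT 4 and 0 elsewhere. Rpl39l, the testis form of Rpl39, had 23 counts in WT 4, 10 in WT 5, 2, 7 and 14 in Opa1cKO 1, 2 and 3, and 0 in the others.

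None of the small-subunit genes passed. Of 32 tested, 11 lay above 0 and 21 below, the median log2 fold change was -0.05, and values ran from -0.25 (Rps3a1) to 0.20 (Rps12). Rps6, whose protein is the classic substrate of the S6 kinases, had a lowest, median and highest level of 114, 129 and 175 CPM in WT and 101, 118 and 139.7 CPM in Opa1cKO. The ranges overlapped and the log2 fold change was -0.19 (SE 0.122, edgeR adjusted p = 0.366). Rps14 and Rps19, both known for inherited or acquired anaemia when their dose is reduced, had -0.12 and -0.02. Rps25, Rps10 and Rps20, which have roles in unusual initiation or in the response to stalled ribosomes, had -0.03, 0.06 and -0.12. Rpsa, which also serves as a laminin receptor, and Rps27a, which is made as a fusion with ubiquitin, had -0.18 and -0.07.

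Among the large-subunit genes, 45 were tested, and Rpl22l1 was the member that passed. Of them 19 lay above 0 and 26 below, with a median log2 fold change of -0.01. Rpl12 (chromosome 2, 32961559 to 32965345, plus strand), whose protein sits at the base of the P stalk, came next by p. It had 384, 285, 382, 311, 339.7 and 339 CPM in WT 1 to 6 and 474, 428, 427, 502, 411 and 336 CPM in Opa1cKO 1 to 6. In 5 of the 6 Opa1cKO libraries it was above every WT library, while Opa1cKO 6 lay within the WT range. Its log2 fold change was 0.28 (SE 0.110, edgeR adjusted p = 0.122), so it did not pass. Without WT 2, WT 4, Opa1cKO 3 and Opa1cKO 6 it was 0.33 (edgeR adjusted p = 0.0652), and without the 4 libraries that go against their labelled sex 0.09 (edgeR adjusted p = 0.810). With all 12 libraries and sex as sex-linked counts show it, it was 0.33 (edgeR adjusted p = 0.080). Rpl12 overlaps Lrsam1 on the other strand, which had 30.0 ± 3.44 CPM in WT and 30.7 ± 3.67 CPM in Opa1cKO, and it shares 49.4% of its words with 15 other genes.

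Rpl7, a large-subunit protein, had the lowest log2 fold change but for Rpl29. Its lowest, median and highest levels were 393, 431 and 658 CPM in WT and 318, 355 and 478.5 CPM in Opa1cKO (log2 fold change -0.31, SE 0.153, edgeR adjusted p = 0.230). WT 1 and WT 2 were the highest libraries, and the rest overlapped. Rpl5 and Rpl11, which with 5S RNA bind MDM2 when ribosome assembly fails, had log2 fold changes of -0.21 (SE 0.124) and -0.01 (SE 0.114), edgeR adjusted p = 0.320 and 0.967. Rpl38, known for its part in the translation of Hox messages, had 0.09 (SE 0.146).

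The P stalk is the arm of the large subunit that recruits elongation factors, and its proteins are encoded by Rplp0, Rplp1 and Rplp2. None of the 3 passed, with log2 fold changes of -0.15, 0.13 and -0.11. Rplp1 and Rplp2 varied widely within a genotype, while Rplp0 ran from 449.6 to 696 CPM over the 12 libraries. Rplp2 had 232, 68.0, 347, 115, 219 and 271 CPM in WT 1 to 6 and 310.4, 313, 66.5, 345, 226 and 85.9 CPM in Opa1cKO 1 to 6. Rplp1 had 291.5, 100.5, 406, 174, 314.5 and 329 CPM in WT and 414, 433, 139, 495, 356 and 151 CPM in Opa1cKO. In both genes the same 4 libraries were lowest, WT 2 and WT 4 among WT and Opa1cKO 3 and Opa1cKO 6 among Opa1cKO.

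Those 4 libraries were the lowest in 14 of the 80 tested members, or 17.5%, and in 507 of all 15229 tested genes, or 3.33%. This pattern was noticed in the data and then counted. The 14 included Rpl36, Rplp2, Rplp1, Rps26, Rps29, Rpl13a, Rps21, Rps10, Rps16, Rpl18, Rpsa, Rpl10a and Rplp0. Rpl36 ran from 16.9 to 112 CPM over the 12 libraries, and its mean over the other 8 libraries was 3.56 times that over the 4. The ratio was 3.38 for Rplp2, 2.69 for Rplp1, 1.94 for Rps26, 1.90 for Rps29 and 1.26 for Rplp0, the smallest of the 14. Rpl4, a core large-subunit protein, did not share it: WT 2 and Opa1cKO 3, at 1144 and 1099 CPM, were among its highest libraries.

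The 4 libraries were also the ones in which GC-rich genes as a whole read low. The median deviation of the GC-richest 10% of all tested genes minus that of the GC-poorest 10% was -0.40, -0.16, -0.38 and -0.23 (log2) in WT 2, WT 4, Opa1cKO 3 and Opa1cKO 6, and 0.01 to 0.23 in the other 8. Median GC content was 53.3% over the 14 members, 50.4% over the other tested members, 58.5% over the 507 genes and 49.9% over all tested genes. Rps26, with 48.6% GC, was among the 14. Rps15, with 62.4%, the highest of the tested members, was not, but it shared most of the pattern. Its lowest libraries were WT 2, WT 4 and Opa1cKO 6, at 154, 159 and 174 CPM, while Opa1cKO 3 had 206 CPM. The part of GC content in the spread of these genes was not tested.

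**Figure D3:**
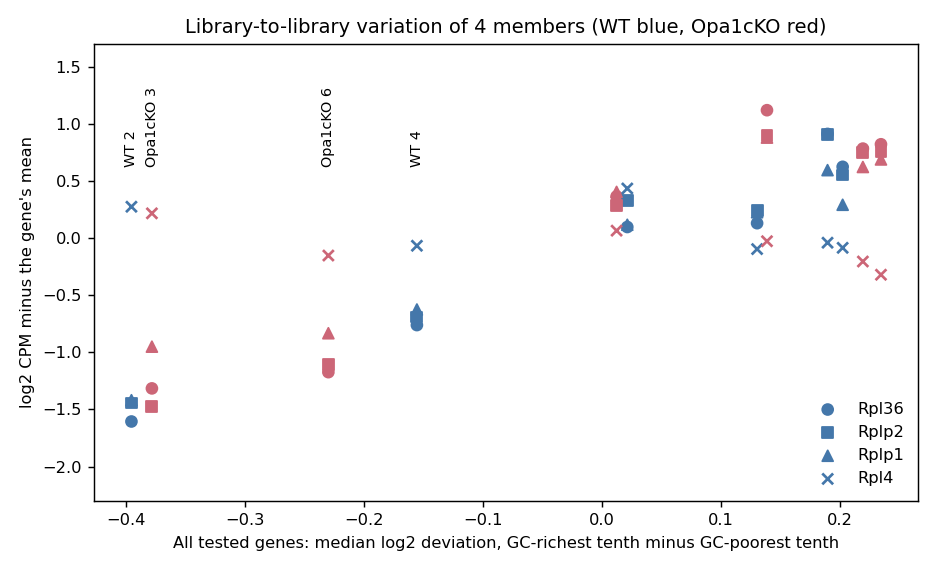
For each library, the deviation of Rpl36, Rplp2, Rplp1 and Rpl4 from the gene's mean (vertical axis, log2 CPM) against the median deviation of the GC-richest minus the GC-poorest 10% of all tested genes (horizontal axis, log2), with WT in blue and Opa1cKO in red. Rpl36, Rplp2 and Rplp1 are low in the 4 libraries named in the plot, which have negative values on the horizontal axis, and Rpl4 is not.

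Each genotype holds 2 of the 4 libraries. Without them the log2 fold change was 0.13 (SE 0.183) for Rplp2, 0.32 (SE 0.132) for Rplp1, -0.10 (SE 0.0989) for Rplp0, 0.27 (SE 0.247) for Rpl36, 0.12 (SE 0.120) for Rps26 and 0.01 (SE 0.113) for Rps29, against SEs of 0.509, 0.400, 0.118, 0.530, 0.280 and 0.314 with all 12. Because these 4 were the lowest libraries in each of these genes, leaving them out narrows the spread by construction. The smaller SEs are therefore not a result. With all 12, Rpl36, Rps26 and Rps29 had log2 fold changes of 0.02, -0.03 and -0.14. None of these passed with or without them.

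Rpl29 and Rps3a1 also varied widely within a genotype, in other libraries. Rpl29, a small basic protein of the large subunit, had 153, 34.6, 128, 55.4, 107.5 and 59.3 CPM in WT 1 to 6 and 64.9, 57.1, 69.4, 131, 62.2 and 5.85 CPM in Opa1cKO 1 to 6. WT 1, WT 3, WT 5 and Opa1cKO 4 were high, and Opa1cKO 6 was far below every other library. The log2 fold change, -0.75 (SE 0.666, edgeR adjusted p = 0.529), became -0.24 without Opa1cKO 6.

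Rps3a1, a protein of the small subunit near the exit of the messenger RNA, had 83.7, 241, 58.7, 61.2, 184 and 51.6 CPM in WT 1 to 6 and 51.8, 45.2, 70.4, 55.3, 173 and 157 CPM in Opa1cKO 1 to 6. WT 2, WT 5, Opa1cKO 5 and Opa1cKO 6 lay between 157 and 241 CPM, and the other 8 between 45.2 and 83.7 CPM. The 2 levels occurred in both genotypes, and the log2 fold change was -0.25 (SE 0.463, edgeR adjusted p = 0.782), or 0.39 without WT 5 and -0.28 without WT 2, WT 4, Opa1cKO 3 and Opa1cKO 6. Both genes have many copies in the genome: Rpl29 shares 47.9% of its words with 82 other genes and Rps3a1 shares 71.0% with 10.

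Most members varied less. The highest library was a median of 1.69 times the lowest, 15 of the 80 exceeded 2 times and 6 exceeded 3 times. Shared sequence is common in these genes: the median member shared 47.6% of its 50-base words with another annotated gene, and 37 members shared over 50%. The sources used here do not say how reads that map to several places were counted, so the levels of such members are uncertain.

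**Figure D4:**
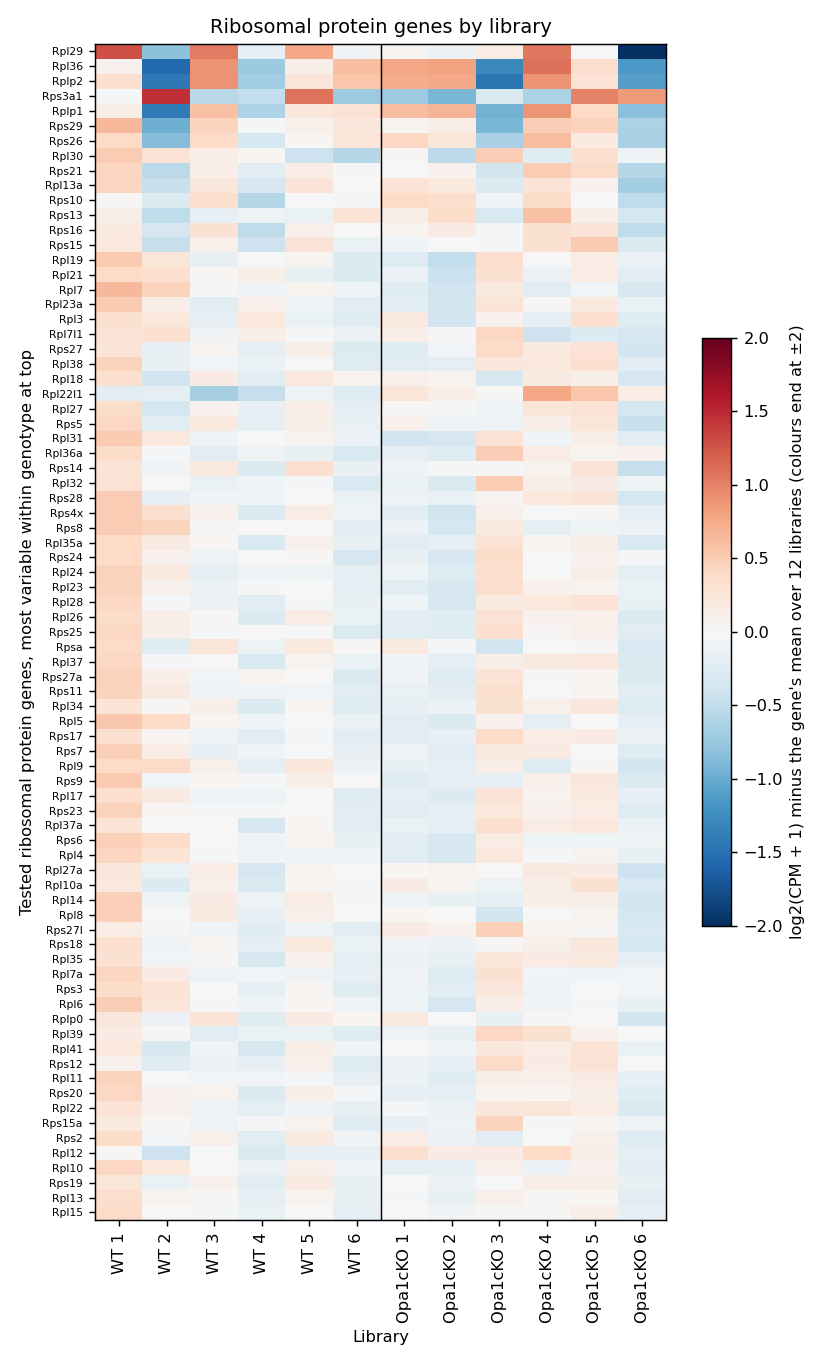
Deviation of each of 79 of the 80 tested members (rows, most variable within genotype at the top) from its own mean in each of the 12 libraries (columns, WT left and Opa1cKO right of the line), in log2(CPM + 1). The top rows show Rpl29, Rpl36, Rplp2, Rps3a1 and Rplp1 differing between libraries of the same genotype, WT 1 is high in most rows, and Rpl22l1 is the row that is lower throughout WT than in Opa1cKO.

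Levels between genes were compared per length, in TPM over the 12 libraries. Rplp1 was highest at a mean of 2755 TPM, followed by Rpl4 at 2174, Rplp0 at 1627, Rps15 at 1568 and Rps4x at 1566 TPM. Rplp1 spread by 1001 TPM (SD) in WT and 1391 TPM in Opa1cKO, so its place above Rpl4 lay within its spread, and Rplp0, Rps15 and Rps4x did not differ beyond theirs. The lowest tested members were Rpl7l1 at 63.4, Rps15a at 92.8 and Rpl21 at 126 TPM. The range was 43.4-fold, with a median of 488 TPM and 10 members above 1000 TPM.

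As a whole, the 83 genes took 1.76 ± 0.236% of counts in WT and 1.71 ± 0.182% in Opa1cKO (SD, n = 6 each), a log2 ratio of -0.04. The ratio was 0.03 without WT 1, 0.01 without Opa1cKO 6 and 0.06 in labelled males alone, so its sign rested on single libraries. The share ran from 1.55% to 2.20% in WT and from 1.40% to 1.89% in Opa1cKO. WT 1 was the highest and Opa1cKO 6 the lowest, and the rest overlapped. In TPM the shares were 4.76 ± 0.507% and 4.72 ± 0.460%. The small subunit took 0.683 ± 0.0939% and 0.657 ± 0.0685% of counts, the large subunit 0.971 ± 0.138% and 0.941 ± 0.107%, and the P stalk 0.108 ± 0.0270% and 0.113 ± 0.0346%. These differences were all smaller than the SD within a genotype.

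**Figure D5:**
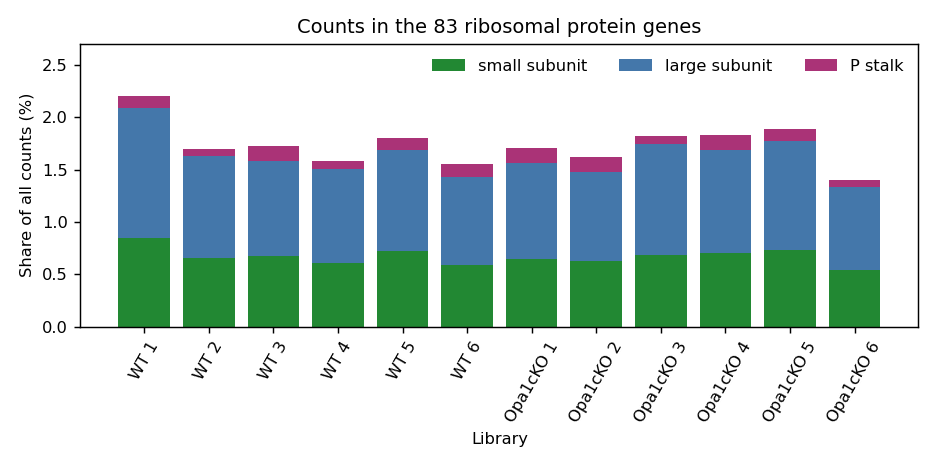
Share of all counts (vertical axis, percent) held by the 83 ribosomal protein genes in each of the 12 libraries, stacked by small subunit, large subunit and P stalk. The total runs from 1.40% in Opa1cKO 6 to 2.20% in WT 1, and the WT and Opa1cKO bars overlap.

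Genes that surround these proteins in the making and use of ribosomes were counted from lists by function. Over all tested genes 5.1% rose and 5.13% fell, and counts of so few genes are descriptions only. Of the 4 ribosome genes outside the rule, none passed (median log2 fold change -0.06). Of 45 ribosome assembly and nucleolar factors 2 rose and none fell, with a median of 0.11. Gnl3, which encodes nucleostemin, had 35.6 to 50.7 CPM in WT and 54.8 to 64.2 CPM in Opa1cKO, with no overlap (log2 fold change 0.39, SE 0.0953, edgeR adjusted p = 0.0197). Rrp12, needed for export of the subunits, had 0.36 (SE 0.0950, edgeR adjusted p = 0.0266). Without WT 6 or without Opa1cKO 6 Gnl3 did not pass, and Rrp12 failed in 4 of the 12 fits that leave out 1 library, those without WT 3, WT 5, Opa1cKO 1 or Opa1cKO 6, the highest edgeR adjusted p being 0.0804 and 0.124.

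Of 14 tested genes of RNA polymerase I and 5S transcription 1 rose, Taf1a at 0.38 (edgeR adjusted p = 0.0479), and of 37 translation factors 1 rose, Eif4g1, the scaffold of cap-dependent initiation, at 0.34 (edgeR adjusted p = 0.0388). Each failed in 9 of the 12 fits that leave out 1 library: Taf1a passed only without WT 5, Opa1cKO 2 or Opa1cKO 5, and Eif4g1 only without Opa1cKO 3, Opa1cKO 4 or Opa1cKO 5. Of 16 genes for stalled ribosomes and quality control none passed.

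Among 25 tested regulators of ribosomal protein messages and ribosome mass, 2 fell and none rose, where 5.13% of all tested genes fell and 5.1% rose. Eif4ebp2, an inhibitor of cap-dependent initiation under mTORC1, had 201 to 248 CPM in WT and 129.9 to 181 CPM in Opa1cKO (log2 fold change -0.41, SE 0.0951, edgeR adjusted p = 0.0153). Max, the partner of MYC on DNA, had 188 to 249 CPM in WT and 118 to 173 CPM in Opa1cKO (log2 fold change -0.52, SE 0.108, edgeR adjusted p = 0.00873). For both, every Opa1cKO library was below every WT library, and the call held in all 12 fits that leave out 1 library. Each passed in 26 of 29 fits in all. The exceptions were the fits without the 4 libraries that go against their labelled sex (edgeR adjusted p = 0.0794 for Eif4ebp2 and 0.108 for Max), in labelled females (0.126 and 0.160) and in labelled males (0.262 and 0.0785). LARP1, mTOR and S6 kinase 1 (Larp1, Mtor and Rps6kb1) had log2 fold changes of 0.10, 0.10 and 0.09, and Myc had 0.04, and none of these passed. Mdm2, Deptor and Larp4b came nearest to the threshold without passing. They had log2 fold changes of 0.34, -0.44 and 0.25 (edgeR adjusted p = 0.0538, 0.0539 and 0.068).

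The mitochondrial ribosome is a separate machine built from other genes. Of 77 tested mitochondrial ribosomal protein genes 1 rose (Mrps10, 0.38, edgeR adjusted p = 0.0345) and 1 fell (Mrpl41, -0.56, edgeR adjusted p = 0.0312), with a median log2 fold change of -0.01. Over all tested genes 5.1% rose and 5.13% fell. Of the 12 fits that leave out 1 library, Mrps10 failed in all but those without WT 4, Opa1cKO 3, Opa1cKO 4 or Opa1cKO 5, and Mrpl41 failed in the 5 without WT 6, Opa1cKO 1, Opa1cKO 2, Opa1cKO 4 or Opa1cKO 6. The medians of the 80 cytosolic and the 77 mitochondrial genes, -0.03 and -0.01, both lay near that of all tested genes, 0.01.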

How the data were processed

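Members and lists were chosen with earlier results of these data known. The authors deposited whole-number read counts per gene and a table of TPM values. Reads were aligned with STAR 2.7.11b to mm10, per the submitters' processing notes. Libraries came from a stranded total RNA kit with depletion of ribosomal RNA, from 50 ng of RNA with 14 PCR cycles, per the labels' protocols. The sources used here do not give the counter, its strand setting or its handling of multiply mapped reads.

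The test was edgeR 4.0.16 in R 4.3.3, with TMM scaling and filterByExpr at a minimum count of 10. Its robust quasi-likelihood model held labelled sex and genotype for the 12 libraries. Benjamini-Hochberg adjustment ran over 15229 genes, and calls were made below an adjusted p of 0.05. Labelled sex was in the fit because WT has 4 females and 2 males and Opa1cKO 2 females and 4 males. Counting error is small at this depth, and PCR copies cannot be told from molecules. Chi-square per degree of freedom between libraries of 1 genotype was at least 33.7, so none was a copy of another.

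Gene positions, GC content and shared 50-base words came from the GENCODE M21 annotation of GRCm38, which matched 32158 of 32285 identifiers, and start regions from RefSeq. The rule for named members took called members, the 5 highest and 3 lowest by TPM, paralogues with their parents, a list of members with particular roles and the 4 largest fold changes. It named 34 members, 31 of them tested. Rpl9, Rps12, Rpl36, Rps29, Rpl13a, Rps21, Rps16, Rpl18, Rpl10a, Rps3a1 and the regulators that did not pass were named after their values were seen. Alternatives were other scalings and filters, DESeq2 1.42.0, limma 3.58.1 with voom or on log2(TPM + 1) and log2(TPM + 0.1), other sex terms, a replicate block, and single libraries left out. Leaving out WT 2, WT 4, Opa1cKO 3 and Opa1cKO 6 together was added after seeing the data. The main edgeR fit, but not the alternatives, was tested on simulated counts. Among the members, 1 is counted but its own values are not reported here.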

Additional observations from a re-analysis of the deposited data

Results flagged for a closer look

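Among the tested named members and the summed measures, 66 groups of 6 libraries were checked for a library far from the other 5 of its genotype. Chance picks out about 1 in 20 such groups, and 3 were found. Rpl11 had 185 CPM in WT 1, where the other WT libraries had 122 to 136 CPM. Rpl38 had 151 CPM in WT 1, above every other WT library. Rps15a had 173 CPM in Opa1cKO 3, above every other Opa1cKO library. None of the 3 genes passed the genotype test.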

How the results depend on the processing

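The count of members higher in Opa1cKO, 1 with all libraries, was 2 with no sex term and 2 with limma-voom and quality weights, where Rpl12 joined Rpl22l1 (log2 fold change 0.34 and 0.35, adjusted p = 0.0453 by edgeR and 0.0264 by limma). Over all alternatives Rpl12 ran from 0.09 to 0.44, the lowest being 0.09 without the 4 libraries that go against their labelled sex and 0.14 in labelled females (edgeR adjusted p = 0.810 and 0.716). With an adjusted p below 0.01, and when the paralogues were left out, the count of members higher was 0. Both follow from the main fit, since Rpl22l1 is a paralogue and had an edgeR adjusted p of 0.0134. The count was also 0 without the 4 libraries that go against their labelled sex, in labelled females alone and in labelled males alone. Rpl22l1 had 0.73 (edgeR adjusted p = 0.0691), 0.76 (0.0652) and 0.51 (0.262) in these 3 fits, which use fewer libraries. The first compares genotypes among females alone, and the fit of labelled males mixes genotype with sex. With all 12 libraries and sex as sex-linked counts show it, Rpl22l1 had 0.74 (edgeR adjusted p = 0.00183). It passed in the other 26 of 29 fits, and with each library left out in turn the count was 1 each time and its log2 fold change 0.51 to 0.685. No setting gave a member lower in Opa1cKO. The median log2 fold change ran from -0.19 to 0.07 and the log2 ratio of the share of counts from -0.15 to 0.06, both across 0, with every move smaller than the SD of the same measure between libraries of a genotype (0.179 and 0.172). That SD is the spread of single libraries, which is wider than the error of a difference between genotype means. With the replicate block, Rpl22l1 had 0.64 (edgeR adjusted p = 0.0123), 1 member was called and 1269 genes were called in all, against 1558. Libraries of the same number correlated at -0.22 to 0.04 in their deviations, none best with its own number, so the numbers were not taken as pairs. The count over all tested genes was 325 without the 4 libraries that go against their sex label, 300 in labelled females, 419 in labelled males, 973 without WT 6, 819 without Opa1cKO 6, 1995 without Opa1cKO 3, 1879 without Opa1cKO 5, 2031 with no sex term, 2319 with DESeq2 and 1558 with all. Of 870 alternative values of named members that did not pass, 75 had the other sign. The smallest library held 37268242 counts. The handling of shared reads is unknown and the sex labels are uncertain. What part depth, the spread between mice, shared reads and sex labels had in these limits was not tested.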

Other observations

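The 2 levels of Rps3a1 had a counterpart nearby. WT 2, WT 5, Opa1cKO 5 and Opa1cKO 6, the 4 libraries highest in Rps3a1, were the 4 highest in 26 of 15229 tested genes. The gap between the lowest of these 4 and the highest of the other 8 was widest for Dchs2, a large cadherin gene, and for Rps3a1. Dchs2 (chromosome 3, 83127948 to 83357209) and Rps3a1 (chromosome 3, 86137940 to 86142702) start 3009992 bases apart. Dchs2 had 2.83, 2.49, 0.619 and 0.890 CPM in WT 2, WT 5, Opa1cKO 5 and Opa1cKO 6 and at most 0.310 CPM in the other 8. Of the 136 tested genes that start within 5000000 bases of Rps3a1, 2 showed the split, Rps3a1 among them.

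For Rpl29, the 4 libraries that were highest, WT 1, WT 3, WT 5 and Opa1cKO 4, were also highest in 25 tested genes, of which Rpl29 had the widest gap. Of the 153 tested genes that start within 5000000 bases of Rpl29, 3 showed it, Rpl29 among them. Rpl29 had 250 counts in its lowest library and 8086 in its highest. The strain is C57BL/6-129/SvEv, and the source of these splits was not tested. Fau, which encodes a small-subunit protein and falls outside the symbol rule, had 104 and 143 CPM in WT 2 and WT 4 and 99.9 and 92.4 CPM in Opa1cKO 3 and Opa1cKO 6, its 4 lowest libraries, and 207 to 274 CPM in the other 8.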
